A study of Mus musculus with 12 samples.

Results

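NRF2, encoded by Nfe2l2, is the transcription factor that cells use to switch on antioxidant and detoxifying enzymes. In unstressed cells the sensor protein KEAP1 binds NRF2 and hands it to a CUL3 ubiquitin ligase for degradation. Oxidants and electrophiles modify KEAP1, NRF2 accumulates, pairs with a small MAF protein and binds antioxidant response elements near its target genes. Because NRF2 is controlled largely at the level of the protein, the RNA level of Nfe2l2 is not a measure of NRF2 activity, and the target genes are commonly read instead. Mice that lack NRF2 are known to be more prone to ischemic kidney injury.

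The 10 genes described here are Nfe2l2 itself and 9 classic targets, namely Nqo1, Hmox1, Srxn1, Txnrd1, Gclc, Gclm, Gsr, Slc7a11 and Osgin1. They were taken by name from a deposited table of 56748 mouse genes, and each name matched 1 gene. Male mice, 8 to 12 weeks old, gave 12 libraries of kidney RNA, which fall into 4 groups of 3. These are cKO IR (a conditional knockout of Krt20 in proximal tubular cells of the kidney, with ischemia/reperfusion), WT IR (wild type with ischemia/reperfusion), cKO sham and WT sham. In ischemia/reperfusion (IR), a model of acute kidney injury, the pedicles of both kidneys were clamped for 30 min under pentobarbital anesthesia and the kidneys were taken 24 h after release. Sham mice had the same operation without clamping. The labels do not name the Cre driver, the strain or whether each library came from its own animal, so p-values measure only the spread between these libraries.

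The libraries held 13187531 to 15962303 reads, as recovered from the deposited values. Krt20, the deleted gene, had 28.2, 35.6 and 47.0 FPKM in the cKO IR libraries, against 84.0, 64.9 and 59.9 FPKM in those of WT IR, and at most 4 reads in any sham library. FPKM counts the fragments of a gene relative to its length and to the depth of the library. The table does not separate the deleted stretch of Krt20 from the rest of the gene, or proximal tubular cells from others. All 5 kidney markers used (Lrp2, Slc34a1, Umod, Slc12a1 and Aqp2) were expressed, and 5 retina markers, checked because the extraction text of the labels speaks of retinas, summed to 0.102 to 0.589 FPKM per library, with Rcvrn at 0 throughout. WT IR 2 stood apart from the other IR libraries. Its 6 tubular injury markers (Havcr1, Lcn2, Spp1, Vcam1, Krt8 and Krt18) summed to 6273 FPKM, against 10642 and 10244 FPKM in WT IR 1 and 3, and its kidney markers to 1833 FPKM, against 1087 and 868 FPKM. Values without it are given where it moves a result most.

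The antioxidant response element has the core TGACNNNGC, where N is any base. It was looked for on both strands in RefSeq windows (build GRCm38.p6) that run from 250 bases before to 50 bases after a transcript start. Of the 10 genes, 7 were in that table, with 9 windows, while Hmox1, Gclc and Gsr were not. A match was present in 4 of the 9 windows, 1 each for Nfe2l2, Srxn1, Txnrd1 and Gclm, against 12.4% of all 32851 windows. The windows of Nqo1, Slc7a11 and Osgin1 held no match, which says only that these letters are not in those windows. Nfe2l2, Srxn1, Txnrd1 and Gclm all rose with injury in cKO kidneys, as described below. In WT kidneys Nfe2l2, Srxn1 and Txnrd1 rose, and Gclm did not pass the test. Of the tested genes without a match in their windows, Nqo1 rose in both genotypes and Osgin1 passed in neither. Whether a match goes with the response to injury was not tested. All stretches that hold a match are shown. They read 5′ to 3′ on the strand of the gene, with the match in capitals.
Nfe2l2, chr2:75704664-75704913, minus strand: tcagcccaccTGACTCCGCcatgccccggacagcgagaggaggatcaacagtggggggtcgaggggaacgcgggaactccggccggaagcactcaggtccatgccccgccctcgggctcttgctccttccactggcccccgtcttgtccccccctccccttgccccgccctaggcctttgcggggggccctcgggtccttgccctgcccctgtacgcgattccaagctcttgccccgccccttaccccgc
Srxn1, chr2:152105542-152105570, plus strand: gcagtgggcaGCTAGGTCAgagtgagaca
Txnrd1, chr10:82858956-82859205, plus strand: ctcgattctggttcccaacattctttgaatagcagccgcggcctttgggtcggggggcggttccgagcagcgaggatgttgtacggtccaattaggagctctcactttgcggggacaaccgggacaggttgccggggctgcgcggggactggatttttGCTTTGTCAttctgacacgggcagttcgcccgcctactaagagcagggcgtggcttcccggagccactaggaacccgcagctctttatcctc
Gclm, chr3:122245307-122245486, plus strand: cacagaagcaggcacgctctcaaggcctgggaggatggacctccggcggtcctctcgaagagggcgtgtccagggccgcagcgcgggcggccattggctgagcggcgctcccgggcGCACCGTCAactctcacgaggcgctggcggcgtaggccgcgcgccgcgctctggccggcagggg
The match lies on the gene's own strand in Nfe2l2, where its first base is 240 bases before the start. It lies on the opposite strand in the other 3 genes, starting 134 bases before the start in Gclm, 92 bases before it in Txnrd1 and at base 29 of the transcript in Srxn1. These distances are counted from the start that defines each window. The Gclm stretch is cut to 180 bases because another start of the gene lies inside its window, nearer to the match. The Txnrd1 window belongs to 1 of its 3 starts and lies inside the gene as the longest transcript spans it. A match is a description of the letters and not a measured binding site.

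Most of the 10 genes rose after ischemia/reperfusion in both genotypes, Hmox1 and Srxn1 by the largest log2 differences of the tested members in each. Of the 9 genes that could be tested, 7 rose in cKO IR against cKO sham, beside 27.8% of all 12868 tested genes called higher and 23.1% called lower there, and none fell. In WT IR against WT sham 6 rose and none fell, beside 22.6% of all tested genes called higher and 19.5% called lower. All 3 IR libraries lay above all 3 sham libraries for 7 of the 9 in cKO, beside 32.6% of all tested genes, and for 6 of the 9 in WT, beside 28.0%. The median log2 difference over the 9 genes was 1.17 in cKO and 0.56 in WT, where the medians over all tested genes were 0.02 and 0.01. Differences are on the scale of log2(FPKM + 1), which understates changes of low genes, and were tested with limma over all genes that averaged 1 FPKM or more, at a Benjamini-Hochberg adjusted p under 0.05. The 9 genes were above 10 FPKM in all 12 libraries, so none passed the filter through 1 group alone. When the values were scaled to plain library totals, the median of all genes in WT moved to 0.13, and 4168 genes were called higher and 1844 lower there, in place of 2910 and 2514. Other things moved with IR too. The kidney markers summed to 677 to 973 FPKM in cKO IR and 868 to 1833 FPKM in WT IR, against 2775 to 2983 FPKM in cKO sham and 2793 to 3062 FPKM in WT sham. Of 5 neutrophil markers 4 averaged 1 FPKM or more and none was at 0 in a whole group, and they summed to 17.5 to 25.5 FPKM in cKO IR, 10.5 to 49.9 in WT IR, 2.57 to 3.14 in cKO sham and 1.81 to 2.45 in WT sham. Their part in the result was not tested, and in bulk tissue more or fewer cells of a type and more or less RNA per cell cannot be told apart.

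**Figure D1:**
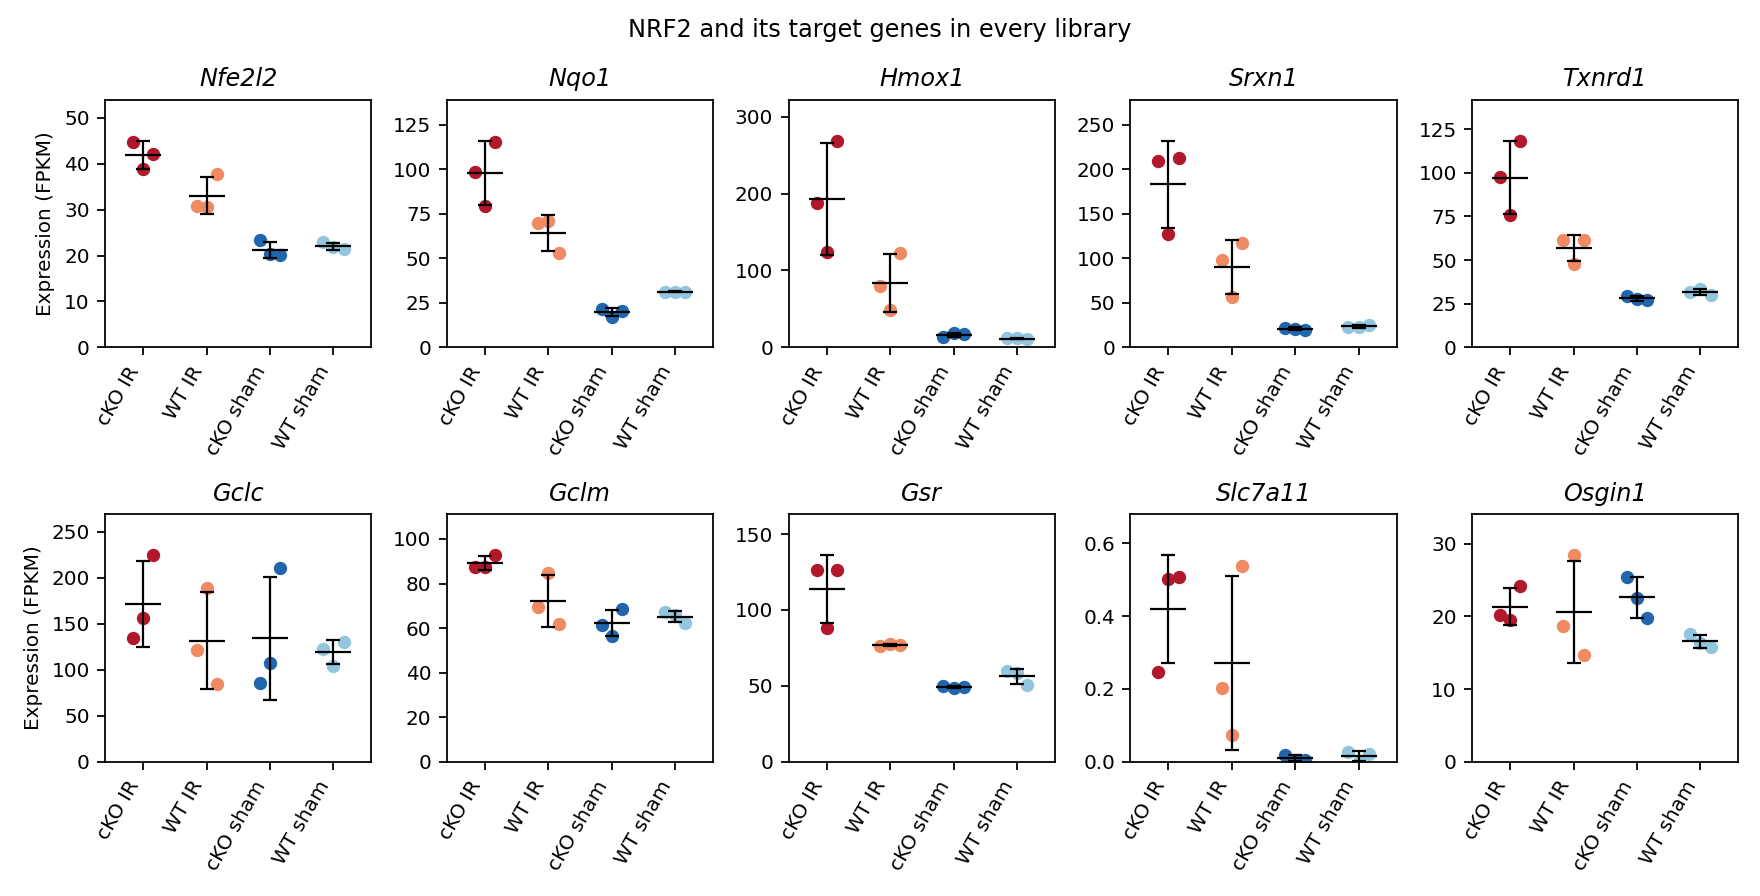
Expression of Nfe2l2 and its 9 targets in FPKM (vertical axes, from 0, 1 panel per gene) in the 4 groups. Points are libraries, the horizontal bar is the mean and the error bar the SD of 3 libraries. In the panels of Nfe2l2, Nqo1, Hmox1, Srxn1, Txnrd1, Gsr and Slc7a11 the points of each IR group lie above those of its sham group, whereas Gclc and Osgin1 overlap.

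Nfe2l2 (ENSMUSG00000015839, chromosome 2, 75505857 to 75534985, minus strand, in the coordinates of the deposited table, whose build is not named) had 44.8, 38.8 and 42.1 FPKM in cKO IR and 23.3, 20.3 and 20.1 FPKM in cKO sham. The WT IR libraries had 30.7, 30.6 and 37.7 FPKM, against 22.9, 21.8 and 21.4 FPKM in WT sham. The transcript of the factor itself was thus higher in all IR libraries than in any sham library, and the cKO IR libraries lay above the WT IR libraries. The log2 difference was 0.95 (SE 0.10, adjusted p = 3.28e-05 in limma) in cKO and 0.56 (SE 0.10, adjusted p = 0.00132) in WT.

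Hmox1 encodes heme oxygenase 1, which breaks heme down to biliverdin, carbon monoxide and iron (ENSMUSG00000005413, chromosome 8, 75820249 to 75827217). It had 187, 123 and 269 FPKM in cKO IR and 13.5, 18.2 and 17.7 FPKM in cKO sham. In WT IR it had 79.9, 48.2 and 123 FPKM, against 11.8, 11.6 and 10.6 FPKM in WT sham. No IR library overlapped a sham library, and WT IR 2 was the lowest of the 6 IR libraries. The ratio of the means was 11.7 in cKO and 7.39 in WT, with log2 differences of 3.42 (SE 0.32, adjusted p = 2.18e-05 in limma) and 2.68 (SE 0.32, adjusted p = 0.000184). The lowest cKO IR and the highest WT IR library both rounded to 123 FPKM, the cKO value being slightly higher. Hmox1 is also expressed by macrophages, which clear red blood cells. The 9 macrophage markers, of which 7 averaged 1 FPKM or more and none was at 0 in a whole group, summed to 54.2 to 91.9 FPKM in cKO IR, 36.2 to 101 in WT IR, 49.6 to 75.0 in cKO sham and 49.1 to 68.5 in WT sham. The 5 red blood cell markers summed to 63.9 to 222, 47.6 to 229, 194 to 270 and 281 to 906 FPKM in the same groups. The part of either cell type in the Hmox1 level was not tested.

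Srxn1, Txnrd1 and Gsr encode enzymes that reduce oxidized protein thiols and glutathione. Srxn1 (ENSMUSG00000032802, chromosome 2, 151947436 to 151953296) encodes sulfiredoxin, which restores overoxidized peroxiredoxins. It had 210, 127 and 212 FPKM in cKO IR and 22.2, 21.1 and 19.1 FPKM in cKO sham. The WT IR libraries held 97.7, 57.0 and 117 FPKM, against 22.4, 23.0 and 24.7 FPKM in WT sham. The 6 sham libraries lay between 19.1 and 24.7 FPKM, and all cKO IR libraries lay above all WT IR libraries. The log2 difference was 3.04 (SE 0.25, adjusted p = 1.11e-05 in limma) in cKO and 1.85 (SE 0.25, adjusted p = 0.000339) in WT.

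Txnrd1 (ENSMUSG00000020250, chromosome 10, 82669785 to 82733546) encodes the cytosolic thioredoxin reductase, which uses NADPH to recharge thioredoxin. It had 97.6, 76.0 and 118 FPKM in cKO IR and 29.6, 27.7 and 27.1 FPKM in cKO sham. In WT IR it had 61.3, 48.0 and 61.4 FPKM, against 31.5, 33.3 and 30.2 FPKM in WT sham. It rose by a log2 difference of 1.73 in cKO (SE 0.15, adjusted p = 1.34e-05 in limma) and 0.82 in WT (SE 0.15, adjusted p = 0.00155). Gsr (ENSMUSG00000031584, chromosome 8, 34142551 to 34188191), the reductase that regenerates glutathione, had 126, 88.0 and 127 FPKM in cKO IR and 50.0, 48.5 and 49.3 FPKM in cKO sham. In WT IR there were 76.3, 77.3 and 77.2 FPKM, against 59.9, 58.2 and 50.5 FPKM in WT sham. The log2 difference of Gsr was 1.17 in cKO (adjusted p = 5.06e-05 in limma) and 0.45 in WT (adjusted p = 0.0171), and the WT call was lost without WT sham 3 (0.38, adjusted p = 0.0691).

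Nqo1 (ENSMUSG00000003849, chromosome 8, 108114857 to 108129838, minus strand) encodes a quinone reductase that transfers a pair of electrons at once and so avoids reactive semiquinones. It had 98.6, 79.2 and 115 FPKM in cKO IR and 21.4, 17.1 and 20.6 FPKM in cKO sham. In WT IR it had 69.6, 70.8 and 52.7 FPKM, against 31.3, 30.8 and 31.3 FPKM in WT sham. The 4 groups did not overlap at all, with cKO IR highest, then WT IR, then WT sham, and cKO sham lowest. The ratio of the means was 4.96 in cKO and 2.07 in WT, and the log2 differences were 2.24 (SE 0.15, adjusted p = 3.58e-06 in limma) and 1.01 (SE 0.15, adjusted p = 0.000543).

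Of the glutathione synthesis genes, Gclm rose in cKO and Gclc passed in neither genotype. Gclc and Gclm encode the catalytic and the modifier subunit of glutamate-cysteine ligase, the rate-limiting enzyme of glutathione synthesis. Gclm (ENSMUSG00000028124, chromosome 3, 122039206 to 122064381) had 87.4, 87.6 and 92.6 FPKM in cKO IR and 61.6, 56.7 and 68.4 FPKM in cKO sham, and rose there by 0.52 (SE 0.11, adjusted p = 0.003 in limma). Its WT IR libraries held 69.6, 84.7 and 61.9 FPKM, against 67.2, 66.0 and 62.3 FPKM in WT sham. These overlapped, and the WT difference of 0.13 did not pass (95% interval −0.12 to 0.38, adjusted p = 0.371 in limma), although it did when scaled to library totals (0.28, adjusted p = 0.0355), and without WT IR 2 it was 0.01. Gclc (ENSMUSG00000032350, chromosome 9, 77661817 to 77701767) was the most abundant of the 10 genes in sham kidneys per length. It had 135, 156 and 225 FPKM in cKO IR and 85.3, 107 and 210 FPKM in cKO sham. In WT IR it had 121, 189 and 84.4 FPKM, against 123, 105 and 130 FPKM in WT sham. The 3 libraries of cKO sham and of WT IR lay far apart, and neither difference passed, at 0.43 in cKO (95% interval −0.35 to 1.21, adjusted p = 0.332 in limma) and 0.07 in WT (−0.71 to 0.85, adjusted p = 0.888). With 1 library left out, the Gclc effect in cKO ran from 0.16 without cKO sham 1 to 0.80 without cKO sham 3 and passed in none of these fits.

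Slc7a11 encodes the cystine importer xCT, which brings in the cystine needed for glutathione and is a central brake on ferroptosis (ENSMUSG00000027737, chromosome 3, 49846975 to 50398063, minus strand). Its mean over all libraries was 0.179 FPKM, so it was not tested with the others. It had 55, 108 and 109 reads in cKO IR and 4, 1 and 1 reads in cKO sham. WT IR libraries held 48, 15 and 111 reads, against 5, 0 and 4 reads in WT sham. No IR library overlapped its sham group, while the IR groups overlapped each other, and the lowest IR value was again that of WT IR 2. Per depth, the summed reads of cKO IR were 42.8 times those of cKO sham (95% counting interval 19.4 to 118) and those of WT IR 17.1 times those of WT sham (8.80 to 38.0), intervals that cover counting error only. The exact two-sided permutation test gave p = 0.1 for each, the smallest that 3 libraries against 3 allow. The summed reads of cKO IR were 1.55 times those of WT IR per depth (1.28 to 1.89), and there the exact permutation test gave p = 0.4. In the fit with no filter on level, Slc7a11 was called for IR in cKO (0.49, adjusted p = 0.0129 in limma) and not in WT (0.31, adjusted p = 0.107), and the difference of 0.18 between them did not pass (adjusted p = 0.762). Even in cKO IR the level was 0.247 to 0.507 FPKM, the lowest of the 10 genes.

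Osgin1, which encodes an oxidative stress induced growth inhibitor (ENSMUSG00000074063, chromosome 8, 120160863 to 120172995), did not pass in either genotype. It had 20.3, 19.6 and 24.2 FPKM in cKO IR and 25.5, 22.6 and 19.8 FPKM in cKO sham. Levels in WT IR were 18.6, 28.4 and 14.8 FPKM, against 17.6, 16.3 and 15.8 FPKM in WT sham. Both IR groups overlapped their sham groups, and the effect of IR was −0.08 in cKO (95% interval −0.50 to 0.34, adjusted p = 0.752 in limma) and 0.25 in WT (−0.17 to 0.67, adjusted p = 0.319). WT IR 2 held the highest Osgin1 value of all 12 libraries, and it was also the highest WT IR library for Gclc, Gclm and Nqo1, while it was the lowest for Hmox1, Srxn1, Txnrd1 and Slc7a11. By small margins it was also the highest for Gsr (77.26 FPKM, beside 77.20 in WT IR 3). It was the lowest for Nfe2l2 by a small margin too (30.63 FPKM, beside 30.70 in WT IR 1). Without WT IR 2 the WT effects of IR were 3.02 for Hmox1, 2.15 for Srxn1 and 0.93 for Txnrd1, and −0.23 for Gclc and 0.003 for Osgin1, with the same 6 genes called.

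**Figure D2:**
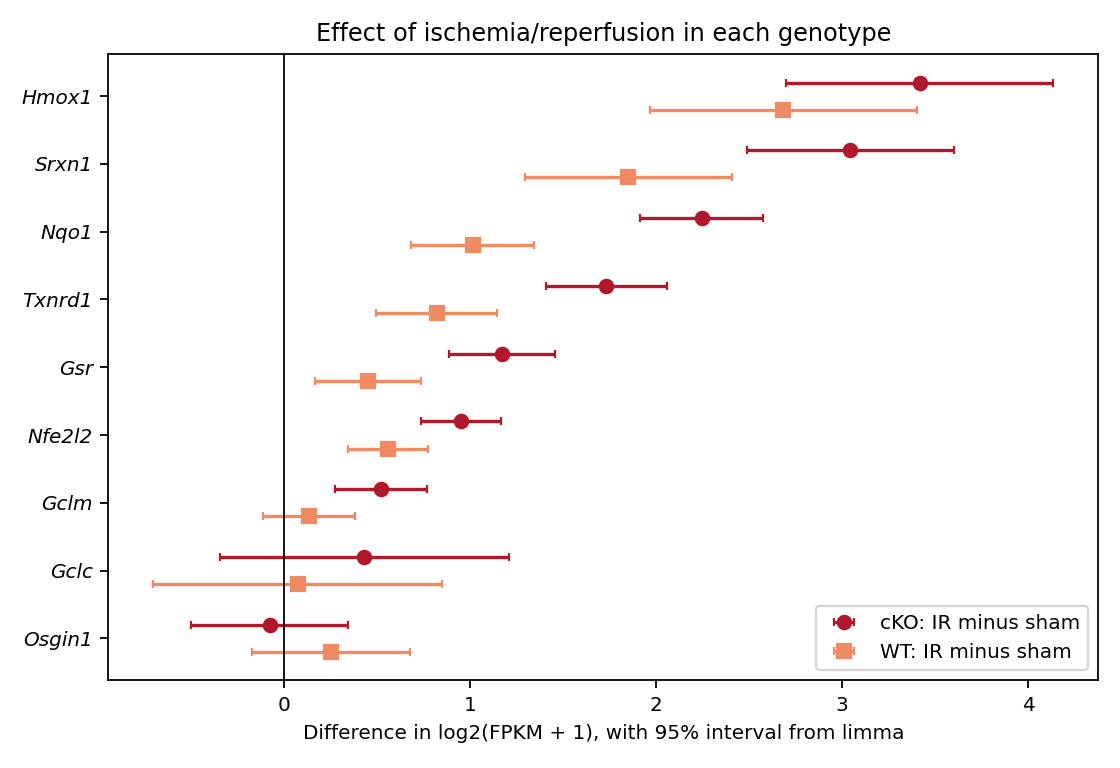
Effect of ischemia/reperfusion on the 9 tested genes as the difference in log2(FPKM + 1) between IR and sham (horizontal axis), in cKO (circles) and in WT (squares), with 95% intervals from limma and 3 libraries per group. From Hmox1 (3.42 and 2.68) down to Gclc (0.43 and 0.07) the cKO value lies to the right of the WT value, and for Osgin1 (−0.08 and 0.25) to the left.

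The question whether the injury response differs in size between the genotypes was asked by the difference between the effect of IR in cKO and the effect of IR in WT. It was called for 1 of the 9 genes, Nqo1, in a comparison in which 0.295% of all tested genes were called higher and 0.583% lower. For Nqo1 the effect in cKO exceeded that in WT by 1.23 on the log2 scale (SE 0.21, 95% interval 0.76 to 1.70, adjusted p = 0.0247 in limma). The estimate stayed between 1.10 and 1.37 when each of the 12 libraries was left out in turn. The call was kept without WT IR 2 (adjusted p = 0.0284). It was lost without cKO IR 1 (0.075), cKO sham 2 (0.0827), cKO sham 3 (0.0621), WT sham 2 (0.0735) or WT sham 3 (0.0667). It was also lost with no filter on level (0.0543) and with the replicate number as a block in the fit.

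The larger response of Nqo1 in cKO was made up of a higher level after IR and a lower level in sham. After IR the cKO mean was 97.7 ± 18.1 FPKM and the WT mean 64.3 ± 10.1 FPKM (SD, n = 3 each), a log2 difference of 0.59 (adjusted p = 0.17 in limma). In sham the cKO mean was 19.7 ± 2.32 FPKM and the WT mean 31.1 ± 0.279 FPKM (SD, n = 3 each), a log2 difference of −0.64 (adjusted p = 0.0873 in limma). Neither difference passed by itself, though the sham difference did when only the sham groups were fitted (adjusted p = 0.0259). In both surgeries the cKO and WT libraries did not overlap, and the exact two-sided permutation test gave p = 0.1 for each, the smallest it can give.

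The other 8 tested genes did not pass in that comparison. The difference in response was 1.19 for Srxn1 (95% interval 0.41 to 1.98, adjusted p = 0.147 in limma), 0.91 for Txnrd1 (0.45 to 1.37, adjusted p = 0.0751) and 0.72 for Gsr (0.32 to 1.12, adjusted p = 0.0979). Txnrd1 (1.08, adjusted p = 0.0216) and Gsr (0.89, adjusted p = 0.00921) were called together with Nqo1 when cKO IR 2, the lowest cKO IR library for Hmox1, Srxn1, Txnrd1, Gsr, Nqo1 and Nfe2l2, was left out. Hmox1, whose log2 response was the largest of the tested genes in both genotypes, had a difference of 0.74 with a wide interval (−0.28 to 1.75, adjusted p = 0.505 in limma), and without WT IR 2 it was 0.39. For Nfe2l2 the value was 0.39 (0.09 to 0.70, adjusted p = 0.216), for Gclm 0.39 (0.04 to 0.73, adjusted p = 0.297), for Gclc 0.36 (−0.74 to 1.46, adjusted p = 0.796) and for Osgin1 −0.33 (−0.93 to 0.27, adjusted p = 0.625). The sizes of the Gclc and Osgin1 values varied with the library left out. Leaving out each of the 12 in turn gave 0.08 (without WT IR 3) to 0.73 (without cKO sham 3) for Gclc and −0.53 (without WT IR 3) to −0.08 (without WT IR 2) for Osgin1, and without WT IR 2 Gclc was 0.65 and Gclm 0.51. At an unadjusted p under 0.05, 6 of the 9 genes had a larger effect in cKO, beside 14.6% of all tested genes in either direction. The median over the 9 genes was 0.72, beside 0.03 over all tested genes. The genes and the comparisons share the same libraries, so they are not independent measurements of a genotype effect. Scaled to library totals, 29 genes were called higher and 111 lower over the whole table, in place of 38 and 75, and Nqo1 stayed called (1.14, adjusted p = 0.0301).

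**Figure D3:**
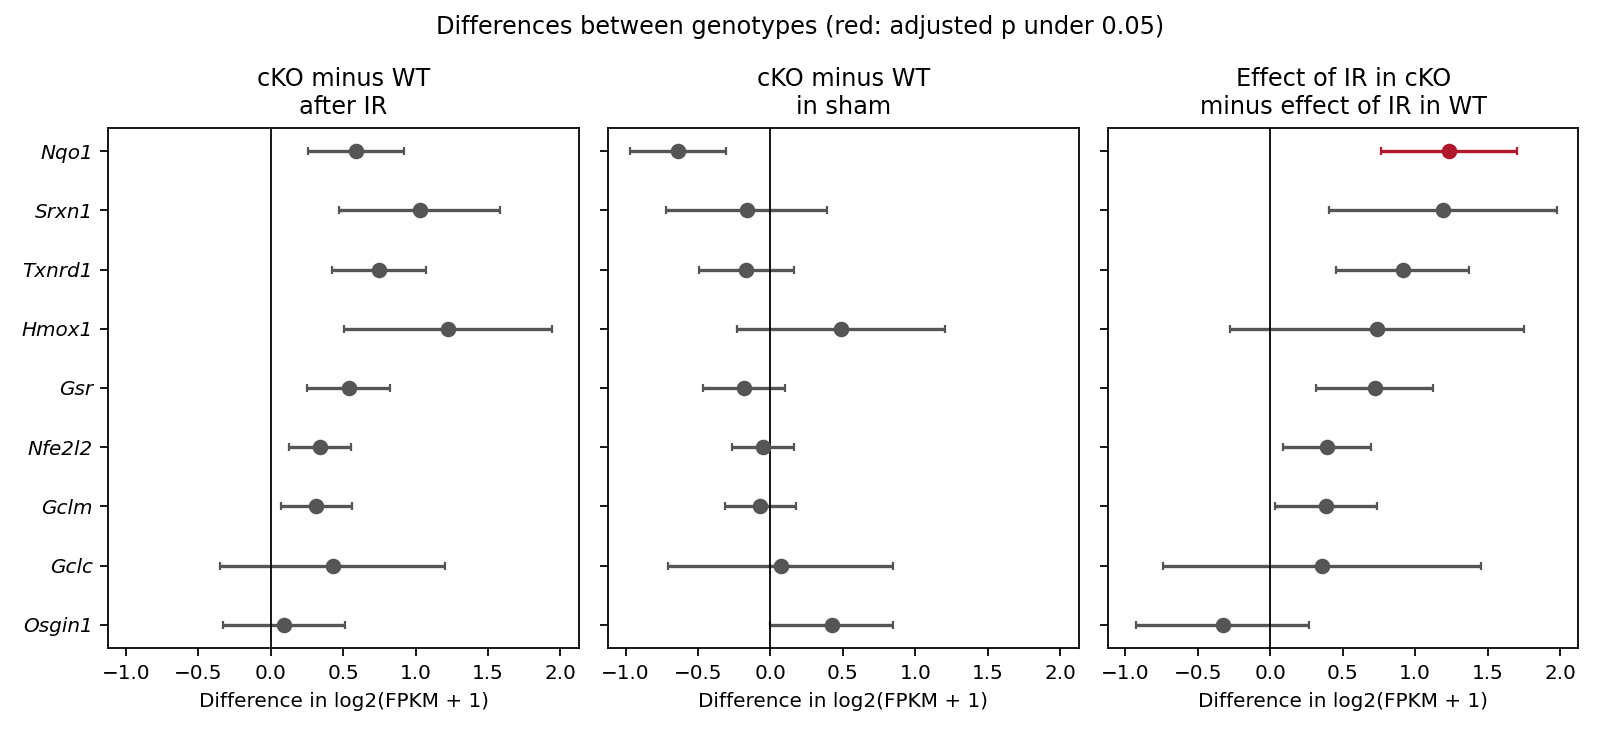
Differences in log2(FPKM + 1) with 95% intervals from limma for the 9 tested genes: cKO minus WT after IR (left), cKO minus WT in sham (middle), and the effect of IR in cKO minus that in WT (right). Nqo1 in the right panel, at 1.23, is the point with an adjusted p under 0.05; its intervals in the left and middle panels do not reach 0, above it after IR and under it in sham.

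Set against each other after injury, 7 of the 9 tested genes had all 3 cKO IR libraries above all 3 WT IR libraries, beside 10.2% of all tested genes. They were Nfe2l2, Nqo1, Hmox1, Srxn1, Txnrd1, Gclm and Gsr. Gclc and Osgin1 overlapped, as did Slc7a11, which was not tested. By limma none of the 9 tested genes was called, and neither was any other gene of the table (0.0% of 12868). At an unadjusted p under 0.05, the 7 genes above were higher in cKO IR, beside 15.0% of all tested genes in either direction. The log2 differences were 1.22 for Hmox1 (adjusted p = 0.175), 1.03 for Srxn1 (0.169), 0.75 for Txnrd1 (0.135), 0.54 for Gsr (0.163), 0.34 for Nfe2l2 (0.184) and 0.32 for Gclm (0.242, all in limma). Gsr was called without cKO IR 2 (0.71, adjusted p = 0.0417). The summed tubular injury markers were also higher, at 12621 to 14163 FPKM in cKO IR and 6273 to 10642 FPKM in WT IR, with all 6 markers averaging over 1 FPKM and none at 0. Their part in the result was not tested. Without WT IR 2 the differences were 0.88 for Hmox1, 0.73 for Srxn1 and 0.63 for Txnrd1, and again none was called.

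In uninjured kidneys none of the 9 tested genes was called between cKO sham and WT sham, beside 0.847% of tested genes called higher and 0.256% lower. At an unadjusted p under 0.05 Nqo1 was the 1 gene of the 9 that differed, beside 11.4% of all tested genes in either direction. Hmox1 and Osgin1 lay without overlap above WT sham in cKO sham, and Nqo1, Srxn1, Txnrd1 and Gsr without overlap below, beside 13.0% and 12.0% of all tested genes. Osgin1 had means of 22.6 ± 2.83 FPKM in cKO sham and 16.6 ± 0.938 FPKM in WT sham (SD, n = 3 each; log2 difference 0.42, adjusted p = 0.44 in limma). Hmox1 had means of 16.4 ± 2.59 FPKM in cKO sham and 11.3 ± 0.649 FPKM in WT sham (0.49, adjusted p = 0.673). The injury markers summed to 719 to 811 FPKM in cKO sham and 377 to 408 FPKM in WT sham, so that the sham groups also differed there without overlap, and this was not tested against the NRF2 genes.

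A further 46 genes of the pathway, listed by role, moved in part with the classic targets. Of these, 43 were tested. In cKO IR against cKO sham 24 rose and 4 fell (median log2 difference 0.40), beside 27.8% of all tested genes called higher and 23.1% lower. In WT IR against WT sham 18 rose and 7 fell (median 0.22), beside 22.6% called higher and 19.5% lower. Between cKO and WT none of the 43 was called after IR or in sham, and after IR 15 were higher and 1 lower in cKO at an unadjusted p under 0.05, beside 15.0% of all tested genes in either direction. Of the genes listed under NADPH supply, 4 of 6 rose and 1 fell in both genotypes, to be read against those same shares of all genes. The list includes Taldo1 and Tkt, enzymes of the pentose phosphate pathway that do not form NADPH themselves. Idh1, also on it, was not called in either genotype (0.05 in cKO and 0.22 in WT). NADPH is the electron donor of Nqo1, Txnrd1 and Gsr. Pgd, of the pentose phosphate pathway, had means of 65.8 ± 8.76 FPKM in cKO IR and 15.3 ± 0.443 in cKO sham, and 43.1 ± 8.22 in WT IR and 15.1 ± 1.13 in WT sham (SD, n = 3 each). Its log2 difference was 2.03 in cKO and 1.44 in WT, and G6pdx, the entry enzyme of that pathway, rose by 1.67 and 0.97 and Taldo1 by 1.23 and 0.63. Me1, malic enzyme and itself a known NRF2 target, was the gene that fell, by 0.76 in cKO and 0.98 in WT (adjusted p = 0.00122 and 0.000469 in limma), and was named after its value was seen.

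Genes of conjugation and of carbonyl and quinone reduction rose in 7 of 14 and fell in 2 in each genotype, beside 27.8% higher and 23.1% lower of all tested genes in cKO and 22.6% and 19.5% in WT. The 2 that fell were Ephx1, by 0.71 in cKO and 0.58 in WT, and Ptgr1, by 0.51 and 0.48. Both were named after their values were seen. The glutathione transferase Gsta1 had a log2 difference of 4.49 in cKO and 4.18 in WT, the aldo-keto reductase Akr1b8 4.03 and 3.13, and Gstp1 1.36 and 0.83. Gsta1 and Gstp1 have near-identical relatives, among which reads can be split in counting. The carbonyl reductase Cbr3 rose by 2.81 and 1.53 and Ugdh, which supplies UDP-glucuronic acid, by 1.51 and 0.57; leaving out WT IR 1 or WT sham 3 ended the WT call of Ugdh (adjusted p = 0.0579 and 0.0561). Among genes of heme and iron handling 5 of 6 rose in cKO IR, beside the 27.8% of all genes, and 4 rose and 1 fell in WT IR, beside the 22.6% and 19.5%. The heme transporter Slc48a1 rose by 0.89 in cKO and 0.46 in WT, and the ferritin chains Ftl1 by 1.23 and 0.95 and Fth1 by 1.17 and 0.89. Blvra rose by 0.71 in cKO and was not called in WT (0.28, adjusted p = 0.0851 in limma). Fech was not called in cKO (−0.02) and was the gene that fell in WT (−0.27, adjusted p = 0.0416 in limma). That WT call of Fech was kept in 1 of 6 fits with 1 library left out. Both ferritin genes, like Txn1, have processed pseudogenes that can share their reads. None of 3 tested efflux transporters of the Abcc family was called in either genotype, with log2 differences of 0.13 to 0.58 in cKO and 0.01 to 0.49 in WT. Of 3 tested thiol and peroxide genes, Txn1, thioredoxin, rose by 0.86 in cKO and 0.98 in WT, and Prdx1 was called in cKO (0.25, adjusted p = 0.0408 in limma), a call lost in 8 of the alternatives, such as without cKO IR 1 (adjusted p = 0.139). Gss was called in neither genotype, at −0.27 in cKO and −0.42 in WT (adjusted p = 0.181 and 0.0563 in limma).

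Among the sensors, partners and regulators 6 of 11 rose and 1 fell in cKO IR, beside 27.8% higher and 23.1% lower of all tested genes. In WT IR 2 rose and 3 fell, near the 22.6% and 19.5% of all tested genes. Maff, a small MAF protein that pairs with NRF2, had means of 10.7 ± 0.948 FPKM in cKO IR and 0.599 ± 0.131 in cKO sham, and 4.44 ± 1.56 in WT IR and 0.967 ± 0.196 in WT sham (SD, n = 3 each). Its effect of IR was 2.87 in cKO and 1.44 in WT, and the difference between these, 1.44, was called (SE 0.24, adjusted p = 0.0216 in limma). Both Maff sham means lay under the 1 FPKM of the filter, so Maff entered the test only through its levels in the IR groups. It was the 1 gene called in that comparison among the 43, beside 0.295% of all tested genes called higher and 0.583% lower. At an unadjusted p under 0.05 in limma, 12 of the 43 had a larger effect in cKO and 0 a smaller one. The share of all tested genes there was 14.6% in either direction. The Maff call was lost without cKO IR 1 (adjusted p = 0.07), cKO sham 2 (0.0771), cKO sham 3 (0.0621) or WT sham 2 (0.0721), and with no filter on level (0.0543). Maff is also an immediate early gene that responds to stress in other ways. Sqstm1, which encodes the KEAP1-binding autophagy receptor p62 and is itself a target of NRF2, rose by 0.88 in cKO and 0.53 in WT. Mafg, another small MAF gene, rose by 0.41 in cKO and was not called in WT (0.02, adjusted p = 0.854 in limma). Mafk, also a small MAF gene, rose by 0.40 in cKO and fell by 0.27 in WT (adjusted p = 0.0052 and 0.0467 in limma). Its WT call was kept in 1 of 6 fits with 1 library left out. The difference of 0.67 between the Mafk effects did not pass (adjusted p = 0.0534 in limma).

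**Figure D4:**
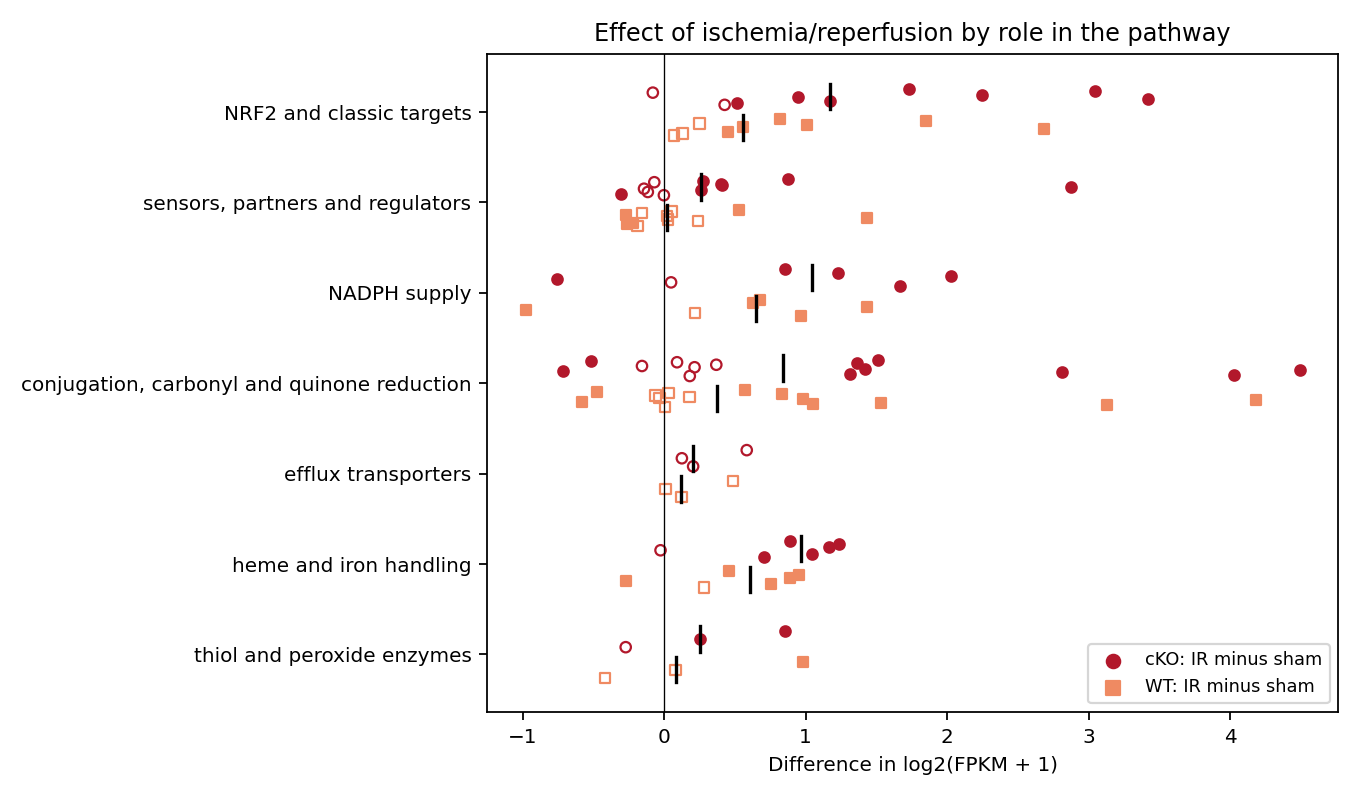
Effect of ischemia/reperfusion as the difference in log2(FPKM + 1) between IR and sham (horizontal axis) for the 9 tested classic genes and 43 other tested genes of the pathway, by role, in cKO (circles) and WT (squares). Filled points have an adjusted p under 0.05 in limma, open points do not, and the black bar is the median of a role. The medians of the genes listed under NADPH supply are 1.04 in cKO and 0.65 in WT, and those of the efflux transporters 0.21 and 0.12.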

How the data were processed

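Kidney RNA of 12 libraries was measured by RNA sequencing, and groups were assigned from the sample titles. The authors deposited 1 table of FPKM per gene and library with gene lengths, per the file headers. HISAT2 2.2.1 and the builds mm8 and mm9 are named in the submitters' processing notes, and the counting program, strand setting, annotation and filters are not named by any source used here. Within a library, FPKM times gene length fell on whole multiples of 1 value (largest distance from a whole number 5.63e-08), and this gave the reads. The library size the authors divided by was 1.00 to 1.13 times the sum of those reads in the IR libraries and 0.933 to 0.990 times in the sham libraries. The deposited values thus set IR lower relative to sham than plain library totals do. The depth of 13187531 to 15962303 reads sets a limit of 3 reads, or 0.176 to 0.226 FPKM for a gene of 1 kb, for a gene with no read.

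From the deposited FPKM, log2(FPKM + 1) was computed and genes that averaged 1 FPKM or more were fitted in limma 3.58.1 (R 4.3.3), with 1 mean per group over all 12 libraries and variances moderated along a trend (8 residual and 2.59 prior degrees of freedom). Contrasts were IR against sham in each genotype, cKO against WT in each surgery, and their interaction. P-values were two-sided and adjusted over all tested genes. Exact permutation tests used FPKM, and the counting interval of a ratio of reads is the exact binomial (Clopper-Pearson) 95% interval. The genes named are the 10 members, Krt20, and up to 3 genes per pathway list with the smallest p in cKO and in the interaction. Me1, Tkt, Idh1, Ephx1 and Ptgr1 were named outside this rule, after their values were seen. Members and lists were chosen with earlier results of these data known. Marker lists covered kidney, tubular injury, macrophages, neutrophils, red blood cells, lymphocytes and retina; lymphocyte markers, none of which averaged 1 FPKM, summed to at most 3.92 FPKM in any library. A further gene listed as a kidney marker is not reported here. Alternatives were a pseudocount of 0.1, no filter on level, scaling to library totals, no variance trend, fitting only the groups compared, the replicate number as a block, and leaving out each library.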

Additional observations from a re-analysis of the deposited data

Results flagged for a closer look

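Nqo1 was the 1 gene of the 9 tested for which the effect of ischemia/reperfusion differed between the genotypes by a test of the difference itself. The effect was 2.24 in cKO and 1.01 in WT on the log2(FPKM + 1) scale, a difference of 1.23 (adjusted p = 0.0247 in limma, 3 libraries per group). The adjusted p over the alternatives tried ran to 0.0827, and the difference itself stayed positive in all of them.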

How the results depend on the processing

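With all libraries, 7 to 8 of the 10 genes were called for IR in cKO (8 with no filter on level, which adds Slc7a11) and 6 to 7 for IR in WT, and 5 to 6 in WT with 1 library left out. Of 585 recomputed values of single genes of the 10, 566 kept their direction and their side of the threshold, 8 lost a call and 5 gained one. The 6 that turned direction were calls in no fit and came from leaving out 1 library. Over these fits Osgin1 for IR in cKO ran from −0.17 to 0.0062 (positive without cKO sham 1) and Gclc for IR in WT from −0.23 without WT IR 2 to 0.35 (−0.02 without WT sham 2). Between genotypes, Osgin1 after IR ran from −0.11 without WT IR 3 to 0.34, and Gclc in sham from −0.31 without cKO sham 3 to 0.34 (−0.02 without WT sham 2).

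For cKO against WT after IR, 0 to 1 of the 10 genes and 0 to 12 genes of the whole table were called with 1 library left out, in place of 0 and 0. The whole table gave 1 with a pseudocount of 0.1, 9 with no filter on level and 1 scaled to library totals. In sham, fitting only the groups compared called 1 of the 10 genes (Nqo1) and 294 of all genes in place of 142, and leaving out 1 library gave 53 to 152. For the difference in the effect of IR, 0 to 3 of the 10 genes and 36 to 148 of all genes were called with 1 library left out, in place of 1 and 113. With no filter on level 0 of the 10 were called. With the replicate number as a block in the fit (replicate block), 0 of the 10 and 73 of all genes were called, Nqo1 being at an adjusted p of 0.0548. Deviations of same-numbered libraries correlated at −0.12 to 0.40 over 12 pairs, the highest being cKO IR 3 with WT IR 3. Those of differently numbered libraries correlated at −0.33 to 0.26. With 3 libraries per group these values cannot settle whether the numbers pair the libraries, and the labels do not say. Leaving out a library also leaves fewer degrees of freedom. Depth limits Slc7a11, with 0 to 5 reads per sham library.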
